A study of Mus musculus with 16 samples.

Results

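Apolipoprotein E, encoded by Apoe, is the main lipid carrier that brain cells secrete, and it was followed here with 8 genes that move, split or store lipid in phagocytes. These 9 genes (Apoe, Abca1, Abcg1, Lpl, Lipa, Npc2, Soat1, Plin2 and Ch25h) were taken by symbol from the 18580 genes listed in at least 1 of 16 libraries, and each of them was listed in both cell populations. The libraries are SMART-seq2 of 2 populations sorted by FACS from mouse brain, which copies full-length mRNA from little RNA. Microglia were gated as CD11b+ cells with low or intermediate CD45. Macrophages were gated as CD11b+ cells with high CD45, a gate that the study describes as holding border-associated and infiltrated macrophages together with neutrophils and NK cells. The mice were males and females, either WT littermates (C57BL/6N) or CD163KO (CD163tm1.1(KOMP)Vlcg), which lack the scavenger receptor CD163 in every cell from birth. They were operated on at 12 weeks and received murine α-syn into the striatum on both sides, as monomers (MONO, the control protein) or as pre-formed fibrils (PFF, which seed aggregation of the endogenous protein). All cells were taken 2 months later, so every library comes from an injected brain, with 4 to 7 mice in a group.

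Each combination of population, sex, genotype and α-syn was represented by 1 library. The comparisons below therefore pool libraries over the other factors, and their p-values measure the spread between libraries, which may be partly technical. In bulk RNA of a sorted population, fewer cells of a type and less RNA per cell cannot be told apart. Values are given as FPKM, the authors' counts divided by transcript length and by sequencing depth, where levels of different genes are set side by side. Fold changes are on the log2 scale and come from counts scaled by TMM, a scaling that sets aside genes with extreme ratios, and a gene was called at an adjusted p of at most 0.05 over all genes tested.

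In a phagocyte that has taken up cell debris or lipoproteins, cholesterol esters are split in the lysosome by the acid lipase Lipa, and Npc2 hands the free cholesterol to the lysosomal membrane. Excess cholesterol is esterified by Soat1 and stored in droplets coated by Plin2, or it leaves the cell through the transporters Abca1 and Abcg1 and is taken up by Apoe particles outside. Oxysterols such as the product of Ch25h are ligands of the nuclear receptor LXR, whose known targets include Apoe, Abca1, Abcg1 and Lpl. In the brain, astrocytes are the main source of Apoe in health, and microglia raise it when they respond to damage.

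The libraries held between 8648751 and 21433841 estimated counts, and marker genes followed the gates. The 12 markers of homeostatic microglia summed to 17736 to 43448 FPKM in the 8 microglia libraries and to 956 to 1877 in the 8 macrophage libraries, while the 12 markers of border-associated macrophages summed to 61.0 to 304 and to 1998 to 5480. Neutrophil markers (12 genes) reached 22182 to 134672 FPKM in macrophages and 1057 to 2876 in microglia. The MONO-CD163KO males, which the study excluded for inconsistent technical replicates, are described but enter no main fit, so the fits hold 7 libraries per population. The study also describes batches of mice, a correction for batch and the removal of outlier samples. The labels used here assign no library to a batch, so batch cannot be told apart from sex, genotype or α-syn. The libraries of PFF-WT males also stood apart in both populations. Their microglia gave 19.7% of all counts to Cst3, like the 18.3% of the excluded MONO-CD163KO males and unlike the 4.62% to 5.54% of the other 6, and they received a TMM factor of 0.254 against 1.22 to 1.32. The microglia library labelled MONO-CD163KO females held 799 counts of Y-linked genes, against at most 2 in every other female library. Cd163 was the only gene called between the genotypes in macrophages (1 of 11988, 0.00834%). In microglia it does not check the genotype labels. Male WT microglia held 0 and 1 counts of it and female WT microglia 46 and 101, while the CD163KO microglia held 23 and 11 in females and 10 and 5 in males. The main differences are therefore given with and without the PFF-WT male pair.

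The 250 bases before the transcription start are shown for the 3 genes with the clearest difference between populations, because Abca1 lay above and Apoe and Plin2 below in microglia under every scaling tried. They are read 5′ to 3′ on the strand of the gene from RefSeq for GRCm38.p6, the assembly of the mm10 build named in the submitters' processing notes. All 3 genes lie on the minus strand. Capitals mark matches, on either strand, to the E-box CACGTG, the GC box GGGCGG, the TATA box TATAAA, or the LXR-type direct repeat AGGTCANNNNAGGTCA with at most 3 mismatches in its 12 fixed letters. The Apoe window is chr7:19699189-19699438, before the most upstream of 3 starts that the table lists, the Abca1 window is chr4:53159896-53160145, and the Plin2 window is chr4:86670060-86670309.
Apoe: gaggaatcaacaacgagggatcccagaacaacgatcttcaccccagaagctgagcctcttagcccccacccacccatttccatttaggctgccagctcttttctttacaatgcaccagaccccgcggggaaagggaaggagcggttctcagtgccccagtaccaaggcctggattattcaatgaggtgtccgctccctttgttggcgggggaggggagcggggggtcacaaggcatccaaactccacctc
Abca1: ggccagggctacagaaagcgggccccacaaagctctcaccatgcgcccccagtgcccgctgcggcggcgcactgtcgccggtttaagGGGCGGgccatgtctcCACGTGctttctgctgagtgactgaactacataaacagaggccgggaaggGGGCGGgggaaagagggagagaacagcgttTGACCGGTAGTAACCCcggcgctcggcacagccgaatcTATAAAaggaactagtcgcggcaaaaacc
Plin2: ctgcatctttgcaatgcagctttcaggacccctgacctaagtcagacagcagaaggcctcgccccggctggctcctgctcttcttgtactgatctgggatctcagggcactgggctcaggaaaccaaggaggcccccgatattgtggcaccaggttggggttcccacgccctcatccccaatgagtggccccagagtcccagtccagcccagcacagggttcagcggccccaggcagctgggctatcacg

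The Abca1 window held a direct repeat with 3 mismatches on the opposite strand, 67 to 52 bases before the start, an E-box at 147 bases, GC boxes at 163 and 97 bases and a TATA box at 29 bases. None of these 4 motifs was found in the windows of Apoe and Plin2 shown. Over 32851 upstream windows of 250 bases in the table, 18.5% held the direct repeat at this tolerance, 6.02% the E-box, 32.7% the GC box and 12.4% the TATA box. The table held windows for 7 of the 9 genes. Of the remaining windows, that of Npc2 held 3 GC boxes, those of Lipa and Ch25h held 1 TATA box each, that of the middle Apoe start held overlapping TATA box matches on both strands, and that of Soat1 held none. A match is a string of letters and not evidence that a factor binds there.

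Apoe (chr7:19696244-19701310) dominated the RNA of the macrophage gate. It took 12.5% of all counts in MONO-WT females, 19.8% in PFF-WT females, 11.2% in MONO-CD163KO females and 16.1% in PFF-CD163KO females. In males it took 7.43% in MONO-WT, 3.16% in PFF-WT and 14.5% in PFF-CD163KO, and 3.35% in the excluded MONO-CD163KO library. It was the gene with the most counts in 7 of the 8 macrophage libraries and came second to Actb, a cytoskeletal actin, in MONO-CD163KO females. In microglia its share was 0.385% in MONO-WT females, 0.573% in PFF-WT females, 0.234% in MONO-CD163KO females and 0.467% in PFF-CD163KO females. The male microglia gave 0.253% in MONO-WT, 0.826% in PFF-WT, 0.466% in PFF-CD163KO and 0.140% in the excluded library, and the gene ranked between 15th and 51st by counts. The 2 populations did not overlap: the lowest macrophage share was above the highest microglia share. Counting error was small at this depth, with a 95% Wilson interval of 19.8% to 19.9% for the largest share and 0.138% to 0.141% for the smallest, and these intervals cover counting error only because PCR copies were counted as reads.

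**Figure D1:**
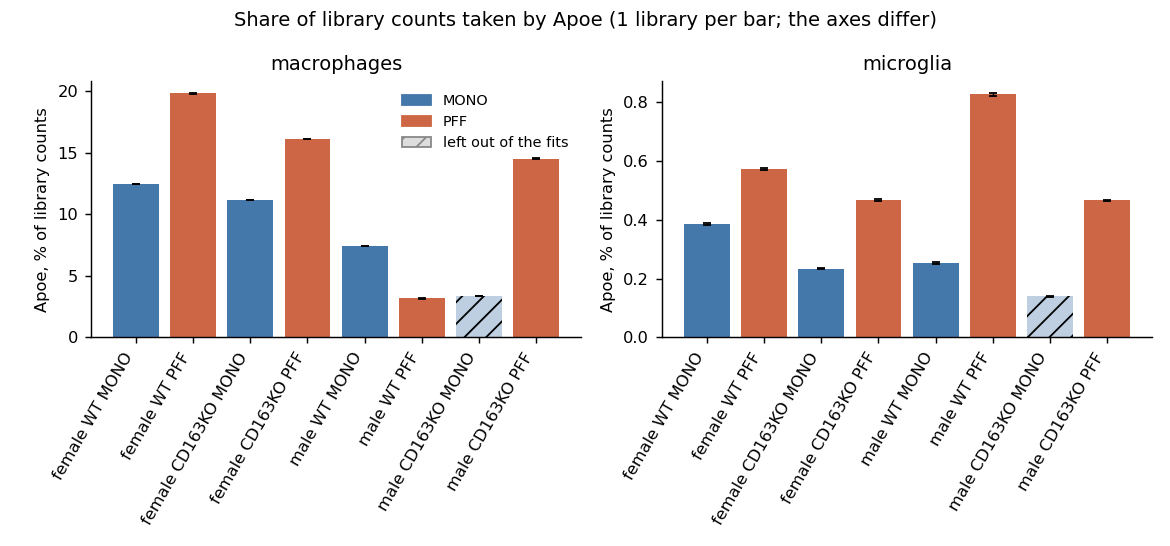
Share of library counts taken by Apoe, in percent, with 1 bar per library and 95% Wilson intervals as error bars (macrophages left, microglia right, on different axes). Macrophages range from 3.16% to 19.8% and microglia from 0.140% to 0.826%, and in microglia each of the 4 PFF bars is above each of the 4 MONO bars.

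Over the 7 matched combinations, the Apoe share in microglia was 0.0396 times that in macrophages (geometric mean, log2 difference -4.66), lower in 7 of 7 pairs (exact permutation test by sign changes, two-sided p = 0.0156, the smallest that 7 pairs allow; adjusted p = 0.0714 over the 5 exact tests of this share). In FPKM, the ratio of macrophages to microglia was 24.6 to 47.9 in 7 of the 8 pairs and 3.81 in PFF-WT males, where the macrophages were low and the microglia high. With edgeR, Apoe was lower in microglia by a log2 fold change of -6.51 (SE 1.45, 95% interval -9.68 to -3.34, adjusted p = 0.00823), and by -7.00 without the PFF-WT male pair. The TMM factors of this fit were 1.95 to 2.12 in microglia and 0.333 to 0.894 in macrophages, except in PFF-WT males (0.433 and 1.36). Outside PFF-WT males, this scaling lowers every gene in microglia relative to its share of counts. The call was lost when the pair of MONO-CD163KO females (edgeR adjusted p = 0.0522), MONO-WT females (0.0587) or MONO-WT males (0.0580) was left out, at fold changes of -6.27, -6.49 and -6.56. On the log2(FPKM + 1) scale the difference was -4.65.

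Of 4 RefSeq transcripts of Apoe, the one of 1288 bases carried 78.0% to 96.9% of the Apoe counts in macrophages and 78.6% to 99.5% in microglia. A second one of 1208 bases carried 2.92% to 21.7% in macrophages and 1.46% to 20.6% in the 7 microglia libraries that listed it, and the other 2 at most 0.84%. These shares overlap between populations and rest on the division of shared reads by RSEM.

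In microglia, the Apoe share was higher after PFF than after MONO in every sex and genotype. The PFF values were 0.573% and 0.467% in females and 0.826% and 0.466% in males (WT and CD163KO in turn), and the MONO values were 0.385%, 0.234%, 0.253% and 0.140% in the same order. The groups did not overlap. Of these values, 0.140% came from the excluded MONO-CD163KO males and 0.234% from the female library with 799 counts of Y-linked genes. The 0.826% came from PFF-WT males, whose libraries stood apart. The mean rise was 2.00-fold over the 7 fitted libraries (exact permutation of labels, two-sided p = 0.0286, the smallest possible with 4 against 3; adjusted p = 0.0714 over the 5 exact tests) and 2.39-fold over all 8 (p = 0.0286, exact, again the smallest possible). Without PFF-WT males it was 1.76-fold, a design in which the exact test gives p = 0.1 as its smallest value. Apoe was 1 of the 43 genes (0.34% of 12637 with an FPKM of at least 1 in any microglia library) whose share was higher in each of the 4 PFF than in each of the 4 MONO microglia libraries, and none of the other 8 genes of the set was among them. The same order held after TMM scaling of the 8 microglia libraries, where the PFF libraries had 3474 to 29756 TMM-scaled CPM (counts divided by the scaled library total) and the MONO libraries 1712 to 2684. The test across all genes did not call it: edgeR gave a log2 fold change of 1.75 (SE 1.03, 95% interval -0.53 to 4.03, adjusted p = 0.785), which ran from 0.89 without MONO-WT males and 0.97 without PFF-WT males to 2.59 without MONO-CD163KO females. In that comparison 0 of 12725 genes were called (0%), 765 had an unadjusted p under 0.05, and DESeq2 called 26 genes, Apoe not among them (adjusted p = 0.183).

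Markers of other cells that make Apoe were measured in the same libraries, and their part in the higher Apoe share was not tested. The summed FPKM of the 12 border-associated macrophage markers were 227, 178, 61.0 and 198 in PFF microglia and 304, 170, 241 and 95.9 in MONO microglia (females WT, females CD163KO, males WT, males CD163KO in turn). Those of 8 astrocyte markers were 126, 138, 36.04 and 89.8 after PFF and 105, 92.2, 122 and 62.5 after MONO. All 8 astrocyte markers and at least 10 of the 12 macrophage markers were above 0 in every microglia library. These sums are in FPKM, and the order of the libraries depends on the scaling, since the TMM factors were 0.278 in PFF-WT males and 0.540 in MONO-CD163KO males against 1.34 to 1.44 in the other microglia.

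In macrophages the Apoe share was also higher after PFF in 3 of 4 pairs, from 12.5% to 19.8% in WT females, from 11.2% to 16.1% in CD163KO females and from 3.35% to 14.5% in CD163KO males, the last with the excluded library. In WT males it was lower, 7.43% after MONO and 3.16% after PFF. The mean difference over the 7 fitted libraries was 1.09-fold (exact permutation, p = 0.914), and edgeR gave a log2 fold change of 0.97 (SE 2.21, adjusted p = 1). Without the PFF-WT male library the exact test gave p = 0.1, the smallest possible with 3 against 3, at a difference of 0.72 on the log2 scale. The neutrophil markers moved beside it in females: they summed to 22182 FPKM in PFF-WT and 32903 in PFF-CD163KO females, where the Apoe share was highest, against 121149 and 98753 in MONO-WT and MONO-CD163KO females. In PFF-CD163KO males they summed to 134672 beside an Apoe share of 14.5%, in MONO-WT males to 118223 and in PFF-WT males to 71689. Their part in the Apoe share was not tested. The test of whether the PFF effect differed between populations gave a log2 difference of 1.07 (SE 4.26, edgeR adjusted p = 1), with 0 of 13704 genes called (0%).

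The Apoe share did not separate the genotypes. CD163KO libraries had 1.58 times the share of WT libraries in macrophages (exact permutation, p = 0.429) and 0.80 times in microglia (p = 0.543, exact), with 3 against 4 libraries and adjusted p = 0.679 for both. Without PFF-WT males the ratios were 1.13 and 0.97. Between sexes, the 4 female macrophage libraries had 161068, 132025, 101499 and 91219 FPKM of Apoe and the male libraries 118967, 60529, 27510 and 25596, so that 1 male library lay within the female range. The edgeR difference of males against females was -1.38 (SE 2.23, adjusted p = 1.00) on the log2 scale, and ran from -2.86 without PFF-CD163KO males to -0.33 without PFF-WT females (-0.80 without PFF-WT males). Markers of other cells moved with sex in the same fit: the median log2 fold change was -3.41 over 9 choroid plexus genes, -1.74 over 7 endothelial and -1.43 over 8 oligodendrocyte genes, with 0 genes called in each, against -0.18 over all genes. The choroid plexus genes summed to 161 to 12627 FPKM in the 4 female and 85.0 to 2819 in the 4 male macrophage libraries, with 3 to 9 of the 9 above 0, and their part in the Apoe difference was not tested. On the log2(FPKM + 1) scale, limma gave -1.02 over the same 7 libraries and called it (adjusted p = 0.000165), but not when genes with low FPKM were kept in the fit (adjusted p = 0.90).

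**Figure D2:**
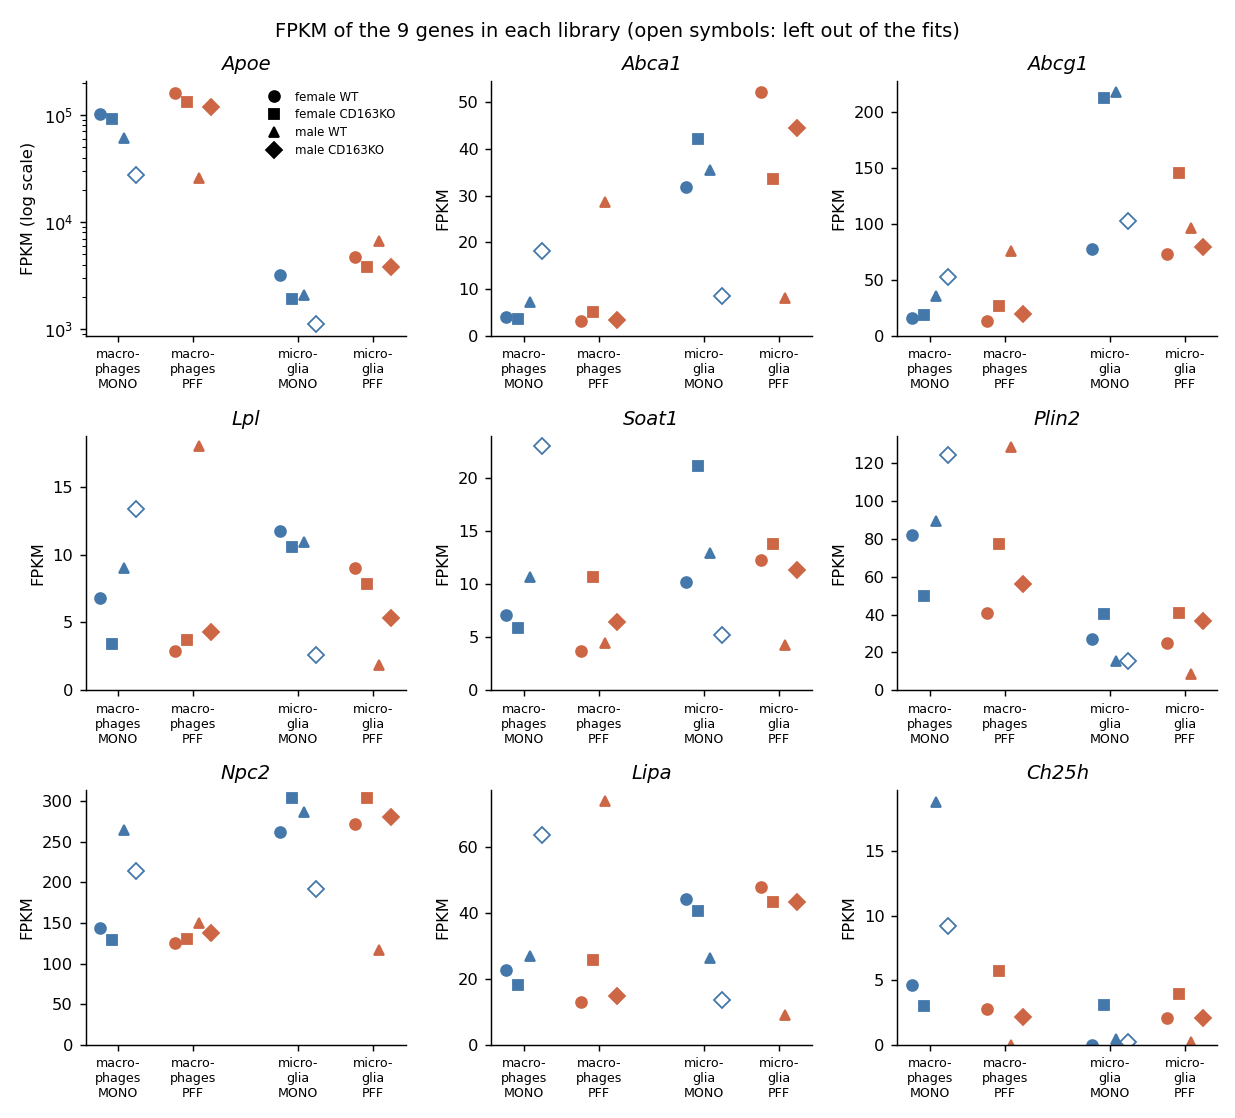
FPKM of each gene in each of the 16 libraries, by population and injected α-syn, with symbols for sex and genotype and open symbols for the male CD163KO MONO libraries left out of the fits (Apoe on a log axis, the others on linear axes from 0). Apoe runs from 25596 to 161068 in macrophages and from 1118 to 6712 in microglia, and the triangles of PFF-WT males stand away from the other PFF libraries for Abca1, Lpl and Lipa in both populations.

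Of the cholesterol exporters, Abca1 was called higher in microglia and Abcg1 missed the threshold. Abca1 (chr4:53030789-53159988), which loads cholesterol and phospholipid onto lipid-poor Apoe, had in macrophages 4.08 FPKM in MONO-WT females, 3.06 in PFF-WT females, 3.51 in MONO-CD163KO females, 5.14 in PFF-CD163KO females, 7.15 in MONO-WT males and 3.33 in PFF-CD163KO males. In microglia the same 6 combinations had 31.9, 52.1, 42.2, 33.6, 35.5 and 44.6 FPKM. These 6 pairs did not overlap, and microglia were 4.97 to 17.0 times higher. The PFF-WT males showed the opposite order, with 28.8 FPKM in macrophages and 8.08 in microglia, as did the excluded MONO-CD163KO males with 18.1 and 8.57. Abca1 was called higher in microglia (log2 fold change 1.14, SE 0.248, edgeR adjusted p = 0.00737), at 1.34 without the PFF-WT male pair and 2.29 on the log2(FPKM + 1) scale.

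Abcg1 (chr17:31057694-31117984), which passes cholesterol on to lipoproteins that already carry lipid, was the more abundant exporter per length in all 16 libraries. It had 13.04 to 76.1 FPKM in the 8 macrophage libraries and 73.4 to 217 in the 8 microglia libraries, and the 2 ranges met only through the 76.1 of PFF-WT male macrophages. Microglia were higher in 8 of 8 pairs, by 1.27 times in PFF-WT males, 1.97 times in MONO-CD163KO males and 4.16 to 11.4 times in the others. Its log2 fold change of 0.87 (SE 0.291) missed the threshold (edgeR adjusted p = 0.0602). It was called by DESeq2 (0.95, adjusted p = 0.0149), without the PFF-WT male pair (0.68, adjusted p = 0.0383) and on the log2(FPKM + 1) scale (2.20, adjusted p = 0.00116). Among microglia, MONO-WT males (217), MONO-CD163KO females (212) and PFF-CD163KO females (145) had the highest FPKM and the other 5 libraries lay between 73.4 and 103, but the order changed after TMM scaling of the 8 microglia libraries, where PFF-WT males (2009 TMM-scaled CPM) and MONO-CD163KO males (1108) were highest.

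Plin2, the coat protein of lipid droplets in phagocytes (chr4:86626910-86670217), was the member with the smallest adjusted p between populations. In macrophages it had 82.3 FPKM in MONO-WT females, 40.8 in PFF-WT females, 49.8 in MONO-CD163KO females, 77.4 in PFF-CD163KO females, 89.3 in MONO-WT males, 129 in PFF-WT males and 56.2 in PFF-CD163KO males. In microglia the same combinations had 26.9, 25.0, 40.3, 40.6, 15.7, 8.36 and 36.7 FPKM. All 7 macrophage values lay above all 7 microglia values, by the narrow gap of 40.8 to 40.6, and the excluded pair gave 124 and 15.6. Plin2 was lower in microglia by a log2 fold change of -2.90 (SE 0.245, edgeR adjusted p = 1.19e-05), by -3.00 without PFF-WT males and by -1.47 on the log2(FPKM + 1) scale.

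Soat1 (chr1:156428108-156474328), which makes the cholesterol esters that fill such droplets, had 3.72 to 10.7 FPKM in the 7 fitted macrophage libraries and 4.22 to 21.1 in the 7 microglia libraries, and the groups overlapped. Its fitted difference was -0.65 (SE 0.374, edgeR adjusted p = 0.256) and turned to 0.70 on the log2(FPKM + 1) scale. Its counts were not whole numbers (within 0.001) in any library, so RSEM shared reads between it and another sequence.

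Of the lysosomal pair, Lipa was called lower in microglia after TMM scaling and Npc2 was not called, and both turned on the FPKM scale. Lipa (chr19:34492316-34527474) had 22.5 FPKM in MONO-WT females, 13.1 in PFF-WT females, 18.2 in MONO-CD163KO females, 25.8 in PFF-CD163KO females, 27.1 in MONO-WT males, 74.1 in PFF-WT males and 14.7 in PFF-CD163KO males for macrophages. For microglia the values were 44.2, 47.8, 40.6, 43.4, 26.4, 8.89 and 43.2. Microglia were thus higher in FPKM in 5 of these 7 pairs, about level in MONO-WT males (0.976 times) and lower in PFF-WT males (0.120 times). After TMM scaling its log2 fold change was -0.93 (SE 0.208, edgeR adjusted p = 0.00863), and the call was lost when genes with low counts were kept in the fit (-0.59, adjusted p = 0.164), whereas on the log2(FPKM + 1) scale the difference was 0.44 and was not called. Npc2 (chr12:84754559-84773112) had 125 to 265 FPKM in the 7 macrophage libraries and 117 to 305 in the 7 microglia libraries, was higher in microglia in 6 of 7 pairs in FPKM, and had a fitted difference of -0.67 (SE 0.322, edgeR adjusted p = 0.177) that turned to 0.74 on the log2(FPKM + 1) scale.

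Lpl (chr8:68880555-68906932), the lipase that splits triglycerides of lipoproteins, had 2.92 to 18.0 FPKM in the 7 macrophage libraries and 1.86 to 11.7 in the 7 microglia libraries, with the highest macrophage and the lowest microglia value in PFF-WT males. In the other 6 pairs microglia had 1.21 to 3.14 times the FPKM of macrophages. Its fitted difference was -1.03 (SE 0.329) at an edgeR adjusted p of 0.0504, just outside the threshold, and turned to 0.31 on the log2(FPKM + 1) scale.

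Ch25h (chr19:34473783-34475148), which makes 25-hydroxycholesterol, had the lowest median FPKM of the set in both populations and the widest edgeR interval between them. It had 0 to 476 counts in the 7 macrophage libraries and 0 to 89 in the 7 microglia libraries. It was not listed in macrophages of PFF-WT males or microglia of MONO-WT females, which at 3 counts allows up to 0.164 and 0.344 CPM. Macrophages of MONO-WT males were highest with 18.8 FPKM, and the remaining macrophage libraries with counts had 2.13 to 9.21. The fitted difference of -2.94 had an SE of 1.52 (edgeR adjusted p = 0.208).

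In all, 4 of the 9 genes were called between populations, Abca1 higher and Apoe, Plin2 and Lipa lower in microglia, beside 2499 of all 13704 genes (18.2%; 910 higher, 1589 lower). Of those 2499 genes 36.4% were higher in microglia, against 52.8% of the calls of DESeq2 and 89.2% of the calls of limma on log2(FPKM + 1). The median log2 fold change over all genes tested was 0.37, and that over the 9 genes was -0.93. Without the PFF-WT male pair, 9 of 9 were called beside 35.7% of 13633 genes, with Abca1 and Abcg1 higher and the other 7 lower. The scaling sets several of these directions. On the log2(FPKM + 1) scale the median over all genes was 0.89, and Lipa, Npc2, Soat1 and Lpl turned positive at 0.44, 0.74, 0.70 and 0.31. Relative to the median of all genes, these 4 ran from -1.40 to -1.02 after TMM scaling and from -0.59 to -0.15 on the log2(FPKM + 1) scale, but without a filter on low FPKM Soat1, Npc2 and Lipa lay above the median by 0.32, 0.36 and 0.066 and Lpl stood at -0.070. Apoe and Plin2 stayed lower and Abca1 and Abcg1 higher in microglia under every alternative run. Beside the populations, the CD45-high gate held neutrophil RNA at the sums given above, whose part in the lower levels of Abca1 and Abcg1 and the higher levels of Plin2 in macrophages was not tested.

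**Figure D3:**
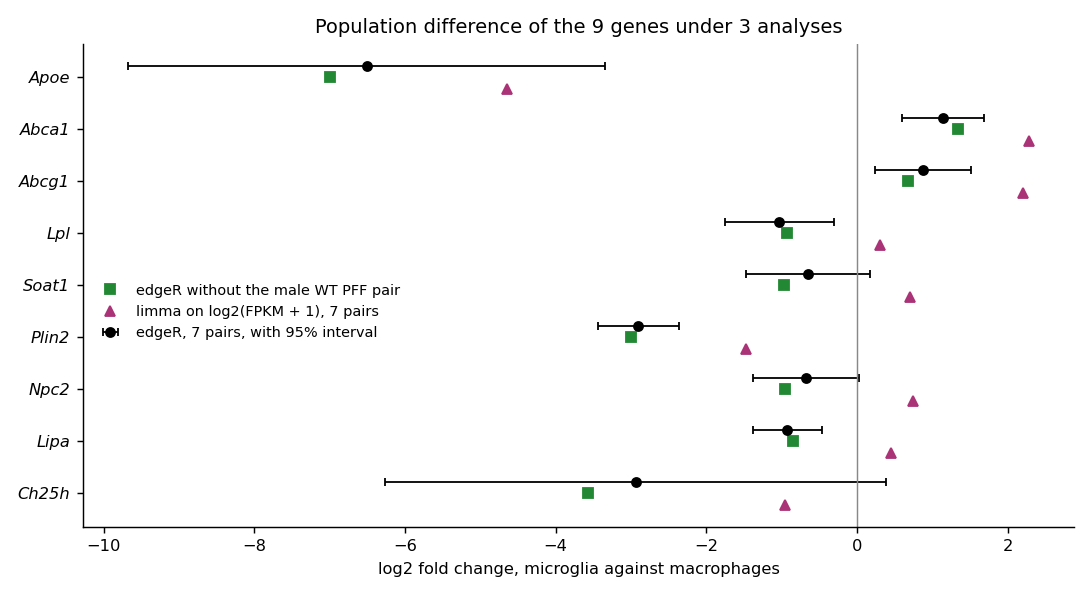
Log2 fold change of the 9 genes in microglia against macrophages, from edgeR over 7 pairs with 95% intervals (circles), from edgeR without the PFF-WT male pair (squares) and from limma on log2(FPKM + 1) (triangles). Apoe (-6.51) and Plin2 (-2.90) lie left of 0 and Abca1 (1.14) and Abcg1 (0.87) right of it by all 3 analyses, whereas Lipa, Npc2, Soat1 and Lpl change side on the FPKM scale.

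Other genes of lipid metabolism, from lists written down with earlier results of these data known, were called between the populations as well, and each count below stands beside the 18.2% called over all genes. Among 14 regulators, 3 were higher in microglia, Mylip and Rxrb among them, and 3 lower (Pparg, Srebf2 and Insig1). Mylip, a ubiquitin ligase induced by LXR, had a log2 fold change of 3.23 (SE 0.34, edgeR adjusted p = 5.59e-05), and Pparg, the nuclear receptor that drives fat storage and scavenger receptor genes, one of -9.44 (SE 1.41, adjusted p = 0.000902). On the log2(FPKM + 1) scale, which damps ratios between low levels, Pparg stood at -1.45. Of 10 receptors tested, Lrp1 (2.42, adjusted p = 0.000126), a large receptor for Apoe, and Trem2 were higher, and 3 were lower, among them the scavenger receptors Cd36 and Msr1, which take up modified lipoproteins. Of 11 apolipoproteins and transfer proteins, Abca9 was higher and Apoc2, Apoc4, Apod and Pltp were lower, with Apoc2, the cofactor of lipoprotein lipase, at -7.81 (SE 0.768, adjusted p = 3.59e-05). Apoc2 and Apoc4 are neighbours of Apoe, in the same cluster of apolipoprotein genes.

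Of 9 lysosomal genes, Npc1, Stard3 and Scarb2, which move or bind cholesterol at the lysosomal membrane, were higher and Gm2a was lower. Of 20 droplet and neutral lipid genes, Mgll, which splits monoglycerides, was higher (2.99, SE 0.938, adjusted p = 0.0464) and Plin3, G0s2, Fabp4 and Fabp5 were lower, with Fabp4, a fatty acid carrier, at -8.39 (SE 2.1, adjusted p = 0.0478). Fabp4 stood at -1.43 on the log2(FPKM + 1) scale. Of 19 sterol synthesis genes, 0 were higher and 4 (Sqle, Idi1, Msmo1 and Sc5d) lower, which became 0 and 11 without the PFF-WT male pair (35.7% of all genes called there), 0 and 2 or 3 without any other pair, and 5 and 2 on the log2(FPKM + 1) scale. Of 7 genes of oxysterols and extracellular lipases, Lmf1 was higher and Cyp27a1 lower. The log2(FPKM + 1) scale gave more genes higher in microglia, with 8 higher and 2 lower among regulators, 6 and 0 among lysosomal genes and 6 and 3 among droplet genes. On that scale Cyp27a1 changed sign (0.07), and the calls of Gm2a, Idi1, Plin3, Srebf2, Sc5d, Insig1 and Msmo1 were lost. The calls of Mgll and Abca9 were lost when any 1 pair other than PFF-WT males was left out, and that of Lmf1 when any of these except MONO-CD163KO females was. In each of these 6 settings regulators fell to 2 higher and 2 lower and droplet genes to 0 and 3, and in most of them 3 apolipoproteins and 2 receptors were lower. Over all 16 libraries the calls of Mgll (edgeR adjusted p = 0.0563), Fabp4 (0.0509), Abca9 (0.156) and Apoc4 were lost. With the size factors of DESeq2 in edgeR, those of Fabp4 (edgeR adjusted p = 0.0511) and Sc5d (0.0508) were lost. The genes beside the 6 with the largest rise or fall are named because their counts were small, after their values were seen.

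**Figure D4:**
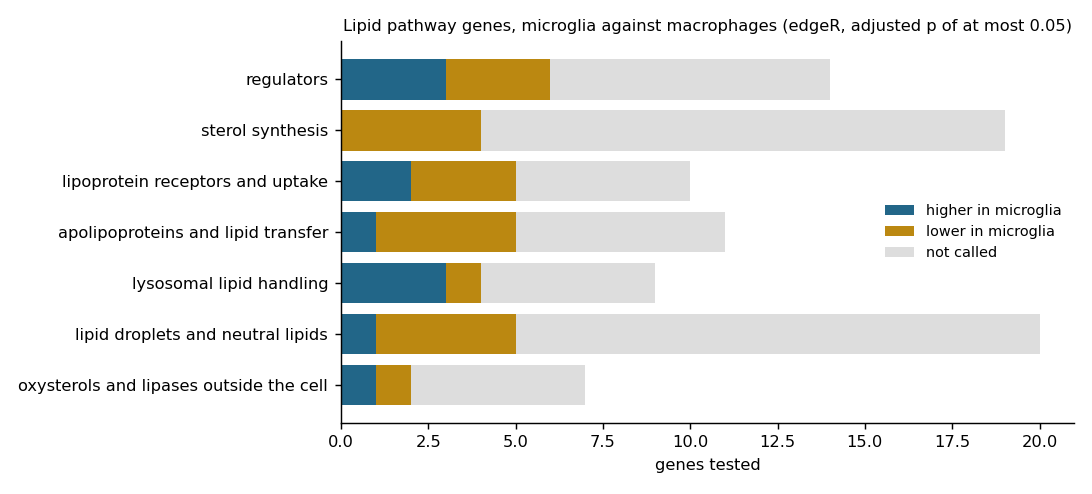
Genes of 7 lists of lipid metabolism in microglia against macrophages, with bars for genes called higher in microglia, called lower, and not called, out of those tested (edgeR, adjusted p of at most 0.05, 7 pairs). Every list has called genes, and sterol synthesis has 4 lower and 0 higher; on the log2(FPKM + 1) scale it has 2 lower and 5 higher.

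Within each population, no member was called by edgeR for PFF against MONO, CD163KO against WT or males against females. In macrophages 0, 1 and 0 of 11988 genes were called in these 3 comparisons (0%, 0.00834% and 0%), with 125, 79 and 152 genes at an unadjusted p under 0.05. In microglia 0 of 12725 were called in each (0%), with 765, 166 and 215 at an unadjusted p under 0.05. DESeq2 called 8, 2 and 17 genes in macrophages and 26, 3 and 20 in microglia, and none of the 9 members. No member had an unadjusted edgeR p under 0.05 in any of the 6 comparisons, nor in the 3 tests of whether an effect differed between populations (0 of 13704 genes called in each, 0%; 122, 84 and 138 at an unadjusted p under 0.05). None of the 9 genes was separated by genotype or sex in all 8 libraries of a population, and Apoe in microglia was the only one separated by α-syn.

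Without PFF-WT males, edgeR again called none of the 9 genes in these comparisons. The intervals were wide. For PFF against MONO the fitted log2 fold changes ran from -1.14 (Ch25h) to 0.97 (Apoe) in macrophages and from -0.38 (Lpl) to 1.75 (Apoe) in microglia. For CD163KO against WT they ran from -0.37 (Lpl) to 0.79 (Soat1) in macrophages and from -1.19 (Apoe) to 1.90 (Ch25h) in microglia. The storage gene Plin2 was the most tightly measured in macrophages, with a PFF difference of 0.16 (95% interval -0.55 to 0.88), and in microglia it was 0.43 (-0.38 to 1.23). Changes within these intervals remain possible with 7 libraries. Of the other lipid genes on the lists, 88 were fitted in macrophages and 84 in microglia, and none was called within a population.

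**Figure D5:**
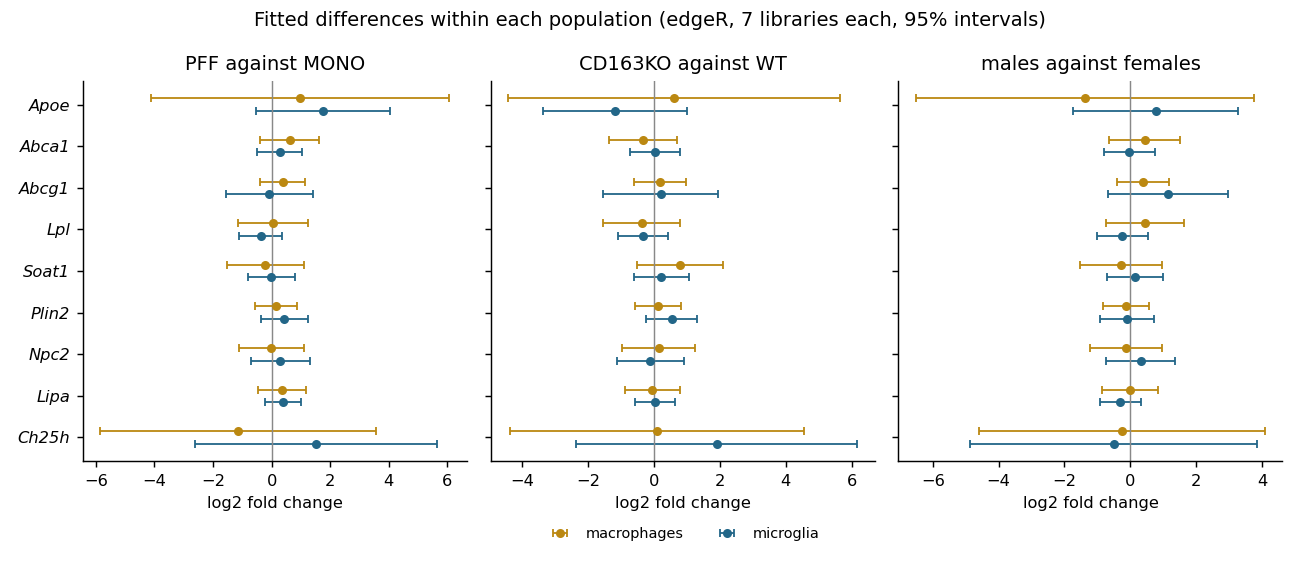
Fitted log2 fold changes of the 9 genes within macrophages and within microglia for PFF against MONO, CD163KO against WT and males against females, with 95% intervals (edgeR, 7 libraries per population). All intervals include 0, and those of Apoe and Ch25h are the widest.

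Across the 7 fitted macrophage libraries, the 5 genes whose log2 TMM-scaled CPM followed Apoe most closely were C1qb (Pearson's r = 0.997), Rassf2 (0.996), Tcn2 (0.996), Tmem109 (0.996) and Cd74 (0.989), among genes with a mean of at least 20 TMM-scaled CPM. C1qb is a complement subunit and Cd74 the invariant chain of MHC class II, both of them abundant in tissue macrophages. Across the 7 microglia libraries they were Sirpa (0.996), Ctsd (0.994), Tmem119 (0.993), Fth1 (0.992) and Csf1r (0.992), of which Tmem119 and Csf1r are microglia markers and Ctsd is a lysosomal protease. Without the PFF-WT male library the values were 0.967 to 0.995 in macrophages and 0.934 to 0.973 in microglia. Among the other members, r with Apoe ran from -0.67 (Abca1) to 0.85 (Plin2) in macrophages and from -0.16 (Lpl) to 0.89 (Npc2) in microglia. Several signs changed without PFF-WT males. In macrophages Abca1 then stood at 0.47, Abcg1 went from -0.31 to 0.28, Lipa from -0.40 to 0.75 and Ch25h from 0.69 to -0.64. In microglia Npc2 then stood at -0.12, Abcg1 went from 0.51 to -0.78 and Soat1 from 0.40 to -0.50. The TMM factor of PFF-WT male microglia was 0.254, and the order of libraries differed before scaling. In unscaled CPM, macrophage Plin2 was 75.4 in PFF-WT females and 238 in PFF-WT males, where Apoe was 198362 and 31620. Microglia Npc2 was lowest in PFF-WT males (379), where microglia Apoe was highest (8265). These are descriptions over libraries that share their scaling, and they carry no test.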

How the data were processed

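RNA of sorted brain cells was sequenced by SMART-seq2 in 16 libraries. Per the labels, Bowtie2, RSEM and DESeq2 were used with mm10, and their versions are not given in the sources used here. The deposited tables give, per RefSeq transcript, the estimated count from RSEM and the FPKM the authors made from it. Triplicates are mentioned, but not whether a table pools them. Transcripts were assigned to symbols through RefSeq (99.4% of 27787) and summed per gene, and an unlisted gene was set to 0. Library totals were 8648751 to 21433841 estimated counts.

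Counts were rounded and fitted by edgeR 4.0.16 (R 4.3.3) with TMM, its filter on low counts, quasi-likelihood tests and Benjamini-Hochberg adjustment. The population fit kept the matched combination of sex, genotype and α-syn as a block. The fits within a population held α-syn, genotype and sex. The share of counts taken by Apoe was tested by exact two-sided permutation on the log2 scale. Alternatives were DESeq2 1.42.0, its size factors, no filter, limma 3.58.1 on log2 FPKM (pseudocounts 1 and 0.1), all 16 libraries, no block and leaving out each combination. Leaving out 2 pairs together, and the likeness without PFF-WT males, were chosen after seeing the data. The fits were tried on simulated data without a shift of scale between populations, an outlying pair or a block effect. That trial says nothing about these features. The 9 genes and all lists were chosen with earlier results of these data known. Named lipid genes are the 3 called with the largest rise and fall, and those of lists with few calls. Upstream windows came from RefSeq for GRCm38.p6. A few genes of the lists are not reported here by name.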

Additional observations from a re-analysis of the deposited data

Results flagged for a closer look

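Of 20 sets of 7 libraries examined (the FPKM of each gene, and the Apoe share of counts, in each population), 7 had 1 library farther from the rest than Dixon's 95% critical value of 0.568, where chance flags about 1 in 20. In 4 of them it was the macrophage library of PFF-WT males that stood high. Abca1 was 28.75 FPKM there against 7.15 in the next library, Abcg1 was 76.06 against 35.86, Lpl was 17.97 against 8.98, and Lipa was 74.09 against 27.07. After TMM scaling this library was still the highest, but by less: Abca1 was 150 TMM-scaled CPM against 66.1 in the next fitted library, Abcg1 225 against 185, Lpl 36.8 against 28.7 and Lipa 112 against 84.5.

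The microglia library of PFF-WT males stood low for Npc2, at 117.22 FPKM against 262.03 in the next library, but it was the highest of the 8 after TMM scaling (Npc2, 1365 TMM-scaled CPM against 1157 in the next). The macrophage library of MONO-WT males stood high for Npc2, at 264.8 FPKM against 150.41, but not after TMM scaling (666 TMM-scaled CPM, below 856 in PFF-WT females and 746 in PFF-CD163KO males), and for Ch25h, at 18.83 FPKM against 5.68. The part of the library itself in these values was not tested.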

How the results depend on the processing

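Of the 4 genes called between populations, Abca1, Plin2 and Lipa kept their call and direction when any 1 pair was left out, and Lipa lost its call without the filter on low counts (-0.59, edgeR adjusted p = 0.164) and turned on the FPKM scale. With limma on log2(FPKM + 1), log2(FPKM + 0.1) and log2(FPKM + 1) without a filter, the differences that turned were 0.31, 0.35 and 0.31 for Lpl, 0.70, 0.77 and 0.70 for Soat1, 0.74, 0.74 and 0.74 for Npc2, 0.44, 0.46 and 0.44 for Lipa, and -0.050 in each for Apoe in male against female microglia.

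Between populations, DESeq2 called 4721 genes and 7 members, limma 6276, 6516 and 5346 genes in the 3 settings, and edgeR 4348 genes and 8 members without the pairs of PFF-WT males and MONO-CD163KO females. Leaving out 1 pair gave 1767 to 4869 genes and 3 to 9 members, the highest of both without PFF-WT males. The cause was not tested.

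In macrophages, PFF against MONO gave 8 genes with DESeq2, 2 and 1 with limma and pseudocounts of 1 and 0.1, and 0 to 4 with 1 library left out. CD163KO against WT gave 2 with DESeq2, 4, 5 and 0 with limma (0 without a filter), and 0 to 5 with 1 left out. Males against females gave 17 with DESeq2, 1 without a count filter, 10 and 12 with limma, of which 1 and 1 was a member (Apoe), 1 over all libraries, and 0 to 7 with 1 left out. In microglia, PFF against MONO gave 26 with DESeq2, 11 without a filter, 1 with limma, and 0 to 1 with 1 left out. CD163KO against WT gave 3 with DESeq2 and 19 without a filter. Males against females gave 20 with DESeq2, 6 without a filter, 5 and 3 with limma, 3 without the microglia labelled MONO-CD163KO females, and 0 to 3 with 1 left out. The tests of differing PFF, CD163KO and sex effects gave 37, 32 and 54 genes with DESeq2, and the first and second gave 0 to 1 with 1 pair left out.

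With 1 library or pair left out, the Apoe difference ran from -0.88 to 1.38 for PFF in macrophages, -0.62 to 2.20 for CD163KO in macrophages, -0.28 to 1.59 for sex in microglia and -0.32 to 3.36 for the differing PFF effect. The log2 difference of its share ran from -0.16 to 0.72 for PFF in macrophages, 0.82 to 1.22 for PFF in microglia (exact p 0.0667 to 0.1, each the smallest then possible) and -0.61 to 0.0097 for CD163KO in microglia. The labels carry no replicate numbers, so pairs were matched by sex, genotype and α-syn. With 1 library per combination, a technical difference between libraries and an effect of sex, genotype or α-syn cannot be told apart in any single library, and Ch25h is limited by counts of 0 to 476.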
